A study of Mus musculus with 23 samples.

Results

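The genes described here carry glucose from outside the cell into lactate or into the mitochondrion. They encode glucose transporters, the enzymes of glycolysis with their main regulators, lactate dehydrogenases, lactate carriers, the mitochondrial pyruvate carrier and the pyruvate dehydrogenase complex with its kinases. The 35 members were chosen by gene symbol for their place in this route, and all 35 were found among the 24475 genes of the deposited table. Their expression was compared between 6 normal thymus samples, 14 spleens with T-cell acute lymphoblastic leukemia (T-ALL) that arose from a wild-type donor thymus (WT T-ALL) and 3 such spleens whose donor thymus lacked Notch3 (Notch3 KO T-ALL).

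The thymus samples came from normal C57BL/6 mice, whose age is not given in the sources used here. The T-ALL samples came from BALB/c recipients without Rag2 and Il2rg that were grafted, at an age of 6 to 8 weeks, with 1 thymus lobe of a donor aged 1 day under the kidney capsule. The age of each recipient when its spleen was taken is not given in the sources used here. Wild-type donors were of the B6.Ly5.1 line, which is congenic to C57BL/6. The strain of the Notch3 KO donors is not given in the sources used here. Their allele carries an in-frame β-galactosidase gene in the first coding exon. T-ALL samples were whole spleens and hold host cells as well as leukemic cells, and the host lacks T, B and NK cells of its own but does form red cells and myeloid cells. Tissue and recipient strain part with the groups, so an effect of leukemia cannot be told apart from that of spleen or strain. Each sample was 1 library, named here by the number in its label.

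Glycolysis splits glucose into pyruvate and yields ATP without oxygen. Pyruvate is then either reduced to lactate by lactate dehydrogenase and exported, or carried into the mitochondrion and turned into acetyl-CoA by pyruvate dehydrogenase, which the pyruvate dehydrogenase kinases switch off. Many steps have several isoenzymes with their own tissue range, and dividing lymphocytes as well as many tumors are known for high glucose uptake and lactate output. Mature red cells have no mitochondria, live on glycolysis and hold the side enzyme Bpgm, whose product loosens oxygen from hemoglobin.

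Values are given on the deposited scale, log2(scaled RPKM + 1), where RPKM is reads per kilobase of transcript, relative to library size, scaled to the same 75th percentile in each library. Where the words "scaled RPKM" stand without log2, the value is on the linear scale. Because of the offset of 1, the fold change of low genes is larger than these differences show. Read depth of the single libraries is unknown. Genes were called where limma gave a Benjamini-Hochberg adjusted p under 0.05 across all tested genes.

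Several features of the libraries touch the results below. Red-cell precursor markers, 9 genes such as Slc4a1 and Alas2, had a mean log2 value of 0.08 to 0.30 in thymus and 2.28 to 5.69 in WT T-ALL, with 4.88 to 7.03 in Notch3 KO T-ALL, with Rhag at a median of 0 in thymus. Their summed scaled RPKM was 0.565 to 2.95, 40.9 to 755 and 395 to 2079. Neutrophil markers, 10 genes such as S100a8 and Ngp, had a mean log2 value of 1.79 to 3.55, 4.18 to 10.65 and 2.85 to 7.18, and a summed scaled RPKM of 58.5 to 537, 645 to 85141 and 206 to 7621. T-cell markers were high in all libraries, at a mean log2 of 7.77 to 7.98, 6.84 to 7.94 and 6.88 to 7.45, while those of thymic epithelium stayed at or under 1.04. The libraries also fell into 2 sets by the level of 4 genes unrelated to this pathway, a split that no label names. The first set (set A) held thymus 5 and 6, WT T-ALL 3, 4, 5 and 7 and all 3 Notch3 KO T-ALL libraries, and the second (set B) held the other 14. Thymus libraries also lay close in pairs, with an SD of the gene differences of 0.189 to 0.310 within the 3 pairs (1 and 3, 2 and 4, 5 and 6), against 0.396 to 0.630 between thymus libraries of different pairs and 0.514 to 1.10 between WT T-ALL libraries. The labels do not say whether the thymus libraries are from separate mice. If each pair is 1 source, p-values over 6 thymus libraries are too small, and with the pairs averaged 8 rather than 13 members were higher in Notch3 KO T-ALL (24.2%, against 14.0% of all genes). Notch3 reads remained in Notch3 KO T-ALL, at 2.59 to 3.74 against 2.62 to 4.29 in thymus and 3.17 to 5.78 in WT T-ALL. Gene-level values do not show which exons these reads came from, so they do not check the labels.

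Of the 35 members, 33 reached 1 scaled RPKM in 3 or more libraries and were tested. Aldoc and Eno2 did not. Hk3 and Slc16a3 reached that level in T-ALL libraries only, as their highest thymus values were 0.642 and 0.969 scaled RPKM. In WT T-ALL, 14 of 33 members (42.4%) were higher than in thymus, where 29.3% of all 11919 tested genes were called higher. Another 5 members (15.2%) were lower, against 22.3% of all genes. In Notch3 KO T-ALL, 13 members (39.4%) were higher and 3 (9.09%) lower, against 21.2% and 16.3% of all genes. That higher count rested on single libraries, since it was 6 (18.2%) without Notch3 KO T-ALL 1, near the 15.4% of all genes in that fit, and 7 (21.2%, against 13.4%) without Notch3 KO T-ALL 3. The median difference from thymus over the 33 members was 0.40 in WT T-ALL and 0.51 in Notch3 KO T-ALL, and over all tested genes it was 0.08 in each. Both comparisons used the same 6 thymus libraries, so they are not independent. They shared 13 called members, of which Slc2a3, Hk2, Gpi1, Pfkl, Aldoa, Tpi1, Gapdh, Pgk1, Pgam1, Pkm and Ldha were higher and Ldhb and Pdk2 lower. How many of all genes were called in both was not counted, so this overlap is not read as a trait of the members.

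The counts moved with the markers of other cells. With the neutrophil score (the mean log2 of the neutrophil markers) as a covariate, 6 of 33 members (18.2%) were higher and 5 (15.2%) lower in WT T-ALL, near the 15.3% and 14.1% of all genes in that fit. That score was 1.79 to 3.55 in thymus and 4.18 to 10.65 in WT T-ALL, without overlap. The adjusted differences of WT T-ALL thus extend the trend within groups across that gap. In Notch3 KO T-ALL 3 members (9.09%) were higher and 4 (12.1%) lower, against 15.3% and 12.2%. With the erythroid score, which did not overlap between thymus and either T-ALL group, 1 member (Tpi1) was higher and 1 (Pdk2) lower in WT T-ALL (3.03% each) and 0 in Notch3 KO T-ALL. All other member calls against thymus were lost in that fit. The calls of all genes fell as well in that fit, to 1.92% higher and 3.02% lower in WT T-ALL and to 0.117% and 0.227% in Notch3 KO T-ALL. Markers of dividing cells, megakaryocytes and B cells also parted thymus from T-ALL. Those of dividing cells had a mean log2 of 5.23 to 5.84 in thymus and 6.11 to 6.83 in WT T-ALL, with 6.49 to 6.76 in Notch3 KO T-ALL. Those of megakaryocytes had 0.15 to 0.22, 0.67 to 3.75 and 2.77 to 3.77, and those of B cells were lower in T-ALL, at 1.37 to 2.02, 0.13 to 0.61 and 0.16 to 0.32. The part of these cells and of each cell type was not tested further, and in whole tissue fewer cells of a type cannot be told apart from less RNA per cell. The plot of differences from thymus shows Aldoa, Tpi1, Gapdh, Pgk1, Pgam1 and Pkm to the right of 0 in both T-ALL groups, while lactate dehydrogenases and pyruvate dehydrogenase kinases part.

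**Figure D1:**
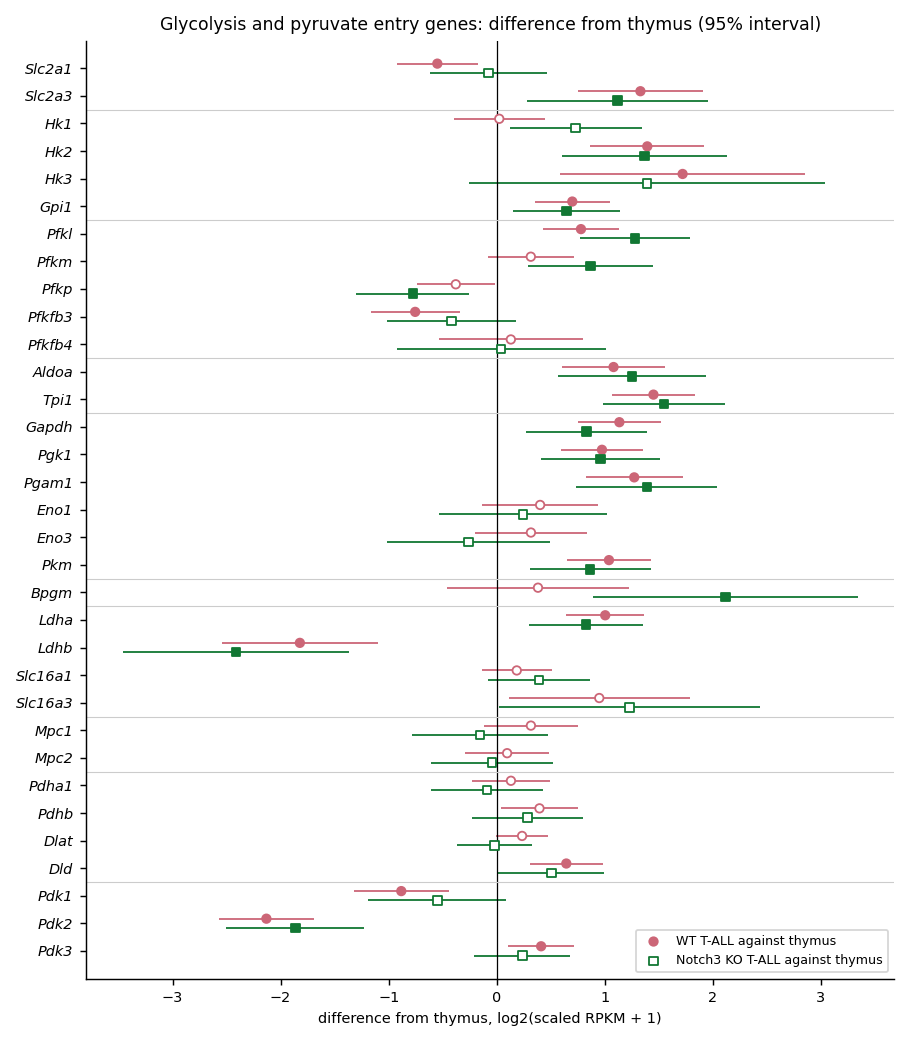
Difference from thymus on the log2(scaled RPKM + 1) scale for the 33 tested members, ordered by role, in WT T-ALL (circles, 14 against 6 libraries) and Notch3 KO T-ALL (squares, 3 against 6). Lines are 95% intervals from limma, and filled symbols have an adjusted p under 0.05. Tpi1 lies furthest to the right among genes called in both comparisons at 1.45 and 1.55, and Ldhb and Pdk2 lie furthest to the left, between -1.82 and -2.41.

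Glucose enters through facilitative transporters, of which Slc2a1 (GLUT1) is found in most cells and Slc2a3 (GLUT3) is a high-affinity form of neurons and leukocytes. Slc2a3 was 2.99, 3.08, 2.90, 2.79, 2.66 and 2.47 in thymus 1 to 6, 2.77 to 5.62 with a median of 4.07 in WT T-ALL, and 3.49, 3.96 and 4.35 in Notch3 KO T-ALL 1 to 3. All but 1 of the WT T-ALL libraries, and all 3 Notch3 KO T-ALL libraries, lay above every thymus library. The difference was 1.33 (SE 0.28, limma adjusted p = 0.000455) in WT T-ALL and 1.12 (SE 0.41, adjusted p = 0.0337) in Notch3 KO T-ALL, the latter lost without thymus 5 or 6 or Notch3 KO T-ALL 2 or 3 and, narrowly, without a filter (adjusted p = 0.0518). With the erythroid score as a covariate it turned to -0.22 (adjusted p = 0.952).

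Slc2a1 went the other way in WT T-ALL. It was 2.80 to 3.10 in thymus, 1.96 to 3.58 with a median of 2.22 in WT T-ALL, and 2.89, 3.14 and 2.51 in Notch3 KO T-ALL. In WT T-ALL, 12 of 14 libraries were below every thymus library and WT T-ALL 110 was above them all, giving a difference of -0.55 (SE 0.18, adjusted p = 0.0148). The difference was -0.08 for Notch3 KO T-ALL, with a 95% interval of -0.62 to 0.47. Slc2a3 held 47.9% ± 5.68 (SD, n = 6) of the summed scaled RPKM of both transporters in thymus, and 78.9% ± 8.36 (SD, n = 14) in WT T-ALL, with 69.0% ± 10.1 (SD, n = 3) in Notch3 KO T-ALL. The log2 ratio of Slc2a3 to Slc2a1 did not overlap between thymus and either T-ALL group. It differed from thymus by 1.88 in WT T-ALL (two-sided exact permutation p = 2.58e-05, adjusted p = 0.000387 over 45 ratio tests) and by 1.20 in Notch3 KO T-ALL (exact p = 0.0119, adjusted p = 0.0412). Those raw p-values are the smallest that 14 against 6 and 3 against 6 libraries can give.

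**Figure D2:**
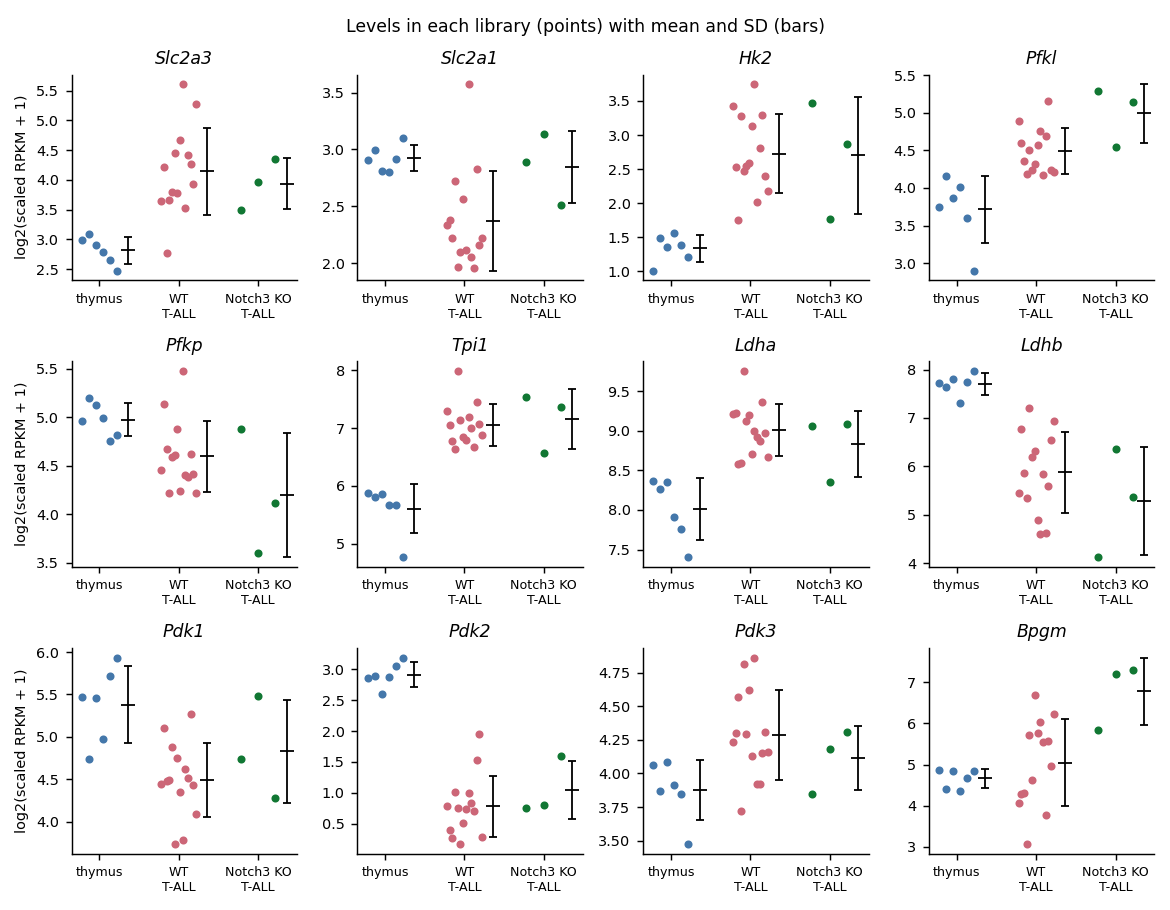
Levels of 12 members in each library on the log2(scaled RPKM + 1) scale, for thymus (6), WT T-ALL (14) and Notch3 KO T-ALL (3). Bars give the mean and SD of each group, and the vertical axes start at different values. T-ALL libraries lie above thymus for Tpi1 and Pfkl and below it for Ldhb and Pdk2, and Bpgm spreads from 3.05 to 6.68 in WT T-ALL.

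Hexokinases trap glucose by phosphorylation. Hk1, the form of most tissues, was the most abundant hexokinase in thymus at 31.0 scaled RPKM ± 8.83 (SD, n = 6), and its log2 level of 4.19 to 5.79 in WT T-ALL spanned that of thymus (4.35 to 5.47). The difference was 0.02 (95% interval -0.40 to 0.44), and in Notch3 KO T-ALL, at 5.46, 5.79 and 5.79, it was 0.73 (SE 0.30, adjusted p = 0.0546), called without thymus 2 or WT T-ALL 5, 126 or 202, within set A (1.22, adjusted p = 0.0248), with the library set as a term (adjusted p = 0.0153) and with those groups alone in the fit (adjusted p = 0.0228). Hk2, the inducible form of muscle and many tumors, was 1.01, 1.49, 1.36, 1.56, 1.38 and 1.21 in thymus, 1.76 to 3.75 with a median of 2.57 in WT T-ALL, and 3.47, 1.77 and 2.87 in Notch3 KO T-ALL. No T-ALL library overlapped with thymus. The rise was 1.39 (SE 0.26, adjusted p = 0.000108) and 1.37 (SE 0.37, adjusted p = 0.00591), and without Notch3 KO T-ALL 1 the second call was lost.

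Hk3, the hexokinase of myeloid cells, was 0.11 to 0.72 in thymus and 0.74 to 5.95 in WT T-ALL with a median of 1.80. It was 1.72 higher in WT T-ALL (SE 0.55, adjusted p = 0.0122), with every library above thymus. No thymus library reached 1 scaled RPKM, so Hk3 entered the fits through the T-ALL libraries, where it was high. Notch3 KO T-ALL libraries had 2.20, 0.46 and 2.54, and the difference of 1.39 (SE 0.80) had an adjusted p of 0.175, or 0.0471 with an offset of 0.1 (2.58). The hexokinase shares shifted from 94.3% Hk1, 4.93% Hk2 and 0.792% Hk3 in thymus to means of 74.7%, 14.5% and 10.9% over the WT T-ALL libraries, where Hk3 reached 56.0% in WT T-ALL 110. They were 84.7%, 10.5% and 4.79% in Notch3 KO T-ALL. The Hk2 to Hk1 ratio differed from thymus by 1.37 in WT T-ALL (exact permutation adjusted p = 0.00329) and by 0.64 in Notch3 KO T-ALL (adjusted p = 0.333). Gpi1, which turns glucose phosphate into fructose phosphate, was 6.47 to 7.07 in thymus and 7.00 to 8.43 in WT T-ALL, with 7.59, 6.97 and 7.79 in Notch3 KO T-ALL. It rose by 0.70 (SE 0.17, adjusted p = 0.0014) and 0.64 (SE 0.24, adjusted p = 0.0387), the latter lost without thymus 4, 5 or 6 or Notch3 KO T-ALL 1 or 3 and with quantile normalization (0.31, adjusted p = 0.288).

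Hk3 followed the neutrophil markers from library to library. Across the 14 WT T-ALL libraries its level correlated with the neutrophil score at r = 0.96 (permutation p adjusted over 35 members, 0.00035) and rho = 0.93, and at r = 0.90 without WT T-ALL 108 and 110. By Pearson correlation Slc16a3, the lactate exporter MCT4, and Pfkfb4, a regulator of phosphofructokinase, were the other members to pass. How many of all genes follow this score was not counted. By rank Eno2, the neuronal enolase, passed as well (rho = 0.79, permutation p adjusted over 35 members, 0.0101), with r = 0.55 (adjusted p = 0.183), at levels too low to enter the fits. Slc16a3 gave r = 0.89, rho = 0.88 and, without the same libraries, r = 0.72, and Pfkfb4 gave 0.87, 0.83 and 0.62. Within the 10 WT T-ALL libraries of set B the 3 values of r were 0.97, 0.93 and 0.92. With the score as a covariate, the difference of Hk3 between WT T-ALL and thymus was -0.64 (SE 0.29, adjusted p = 0.102) and that of Pfkfb4 was -1.06 (SE 0.28, adjusted p = 0.00727). This score was chosen after the data had been seen, and it did not overlap between thymus and WT T-ALL. The plot of levels against marker scores shows WT T-ALL 110, with a score of 10.65, at the top of the 3 genes.

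**Figure D3:**
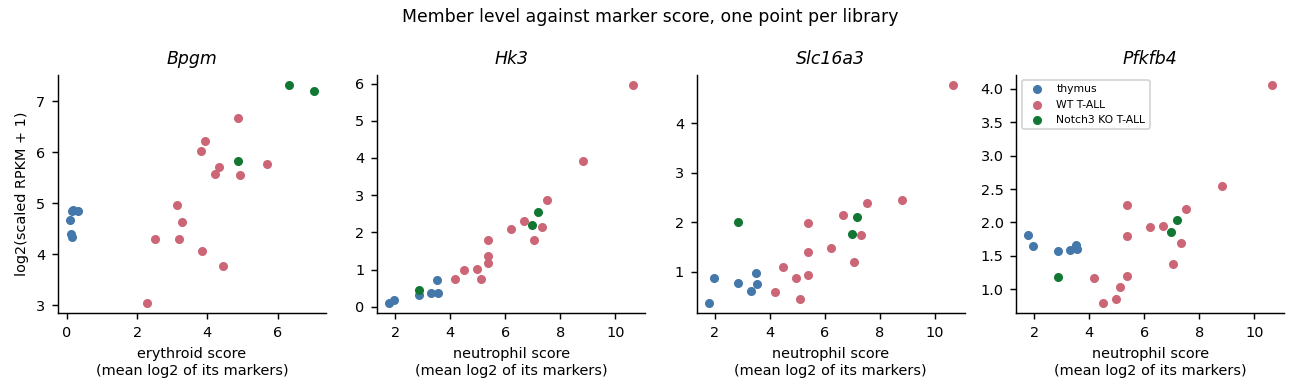
Level of a member, log2(scaled RPKM + 1), against the mean log2 level of a marker list, with 1 point per library and colors for thymus, WT T-ALL and Notch3 KO T-ALL. Bpgm is set against the erythroid score and Hk3, Slc16a3 and Pfkfb4 against the neutrophil score. Hk3 climbs with the score in nearly all libraries, and for Bpgm the thymus libraries sit near a score of 0 at levels of 4.35 to 4.86.

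Phosphofructokinase commits sugar to glycolysis and is built from liver (Pfkl), muscle (Pfkm) and platelet (Pfkp) subunits. Pfkl was 3.74, 4.16, 3.87, 4.02, 3.60 and 2.90 in thymus, 4.17 to 5.16 with a median of 4.43 in WT T-ALL, and 5.29, 4.55 and 5.14 in Notch3 KO T-ALL. Every T-ALL library was above every thymus library, narrowly so in WT T-ALL. The difference was 0.78 (SE 0.17, adjusted p = 0.000585) and 1.28 (SE 0.25, adjusted p = 0.000327). Pfkm was 3.50 to 3.72 in thymus and 4.16, 4.61 and 4.64 in Notch3 KO T-ALL, a rise of 0.87 (SE 0.28, adjusted p = 0.0179) that lost its call without Notch3 KO T-ALL 2 or 3 and turned to -0.59 (adjusted p = 0.773) with the erythroid score as a covariate. In WT T-ALL it ranged from 3.13 to 4.64, with a difference of 0.31 (SE 0.19, adjusted p = 0.175).

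Pfkp, the leading subunit of thymus, pointed down. It was 4.76 to 5.20 in thymus, 4.22 to 5.48 with a median of 4.52 in WT T-ALL, and 4.88, 3.60 and 4.11 in Notch3 KO T-ALL. The fall in Notch3 KO T-ALL was -0.78 (SE 0.25, adjusted p = 0.0188), though Notch3 KO T-ALL 1 lay within the thymus range and the call was lost without Notch3 KO T-ALL 2 or 3. In the fit with the erythroid score it was 0.00600 (adjusted p = 0.998). In WT T-ALL the difference of -0.38 (SE 0.17, adjusted p = 0.0717) was not called, and 11 of 14 libraries were below every thymus library. That difference was called without WT T-ALL 4 or 110 or Notch3 KO T-ALL 1, with quantile normalization, with the neutrophil score, with those groups alone in the fit and within set B, at adjusted p of 0.0232 to 0.0484 in the latter 4 fits. Of the summed phosphofructokinase signal Pfkp made up 56.4% ± 2.12 (SD, n = 6) in thymus, 39.3% ± 8.81 (SD, n = 14) in WT T-ALL and 25.2% ± 7.81 (SD, n = 3) in Notch3 KO T-ALL, and Pfkl made up 22.8%, 35.9% and 43.6%.

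The Pfkp to Pfkl ratio was the single isoform ratio called between the T-ALL groups. It was 0.97 to 1.91 in thymus and -0.55 to 0.72 in WT T-ALL, with -1.02 to -0.41 in Notch3 KO T-ALL, and both T-ALL groups were clear of thymus. It differed by -1.16 in WT T-ALL (exact permutation adjusted p = 0.000387), by -2.05 in Notch3 KO T-ALL (adjusted p = 0.0412) and by -0.90 between Notch3 KO T-ALL and WT T-ALL (exact p = 0.00441, adjusted p = 0.0248). All Notch3 KO T-ALL libraries were in set A. Against the 4 WT T-ALL libraries of that set the difference was -0.91 with an exact p of 0.0857, and the call was lost without Notch3 KO T-ALL 2 or 3.

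Pfkfb3 and Pfkfb4 make the small molecule that switches phosphofructokinase on. Pfkfb3 was 3.64 to 4.13 in thymus, 2.17 to 4.04 with a median of 3.01 in WT T-ALL, and 3.53, 3.28 and 3.52 in Notch3 KO T-ALL. It fell by 0.76 in WT T-ALL (SE 0.20, adjusted p = 0.00324), where 12 of 14 libraries were below thymus. The 3 Notch3 KO T-ALL libraries were also below thymus, but the difference of -0.42 (SE 0.29) had an adjusted p of 0.266, or 0.0411 with those groups alone in the fit. Pfkfb4 was 1.58 to 1.81 in thymus, and its differences of 0.13 and 0.04 were not called. With the neutrophil score as a covariate both became calls in the lower direction, at -1.06 (adjusted p = 0.00727) and -0.92 (adjusted p = 0.0449).

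Tpi1 and Aldoa, from the middle of the pathway, rose in both T-ALL groups. Tpi1, which interconverts the triose phosphates, was 5.88, 5.80, 5.85, 5.67, 5.67 and 4.76 in thymus, 6.63 to 7.99 with a median of 7.03 in WT T-ALL, and 7.54, 6.57 and 7.37 in Notch3 KO T-ALL. No T-ALL library came within the thymus range. The rise was 1.45 (SE 0.19, adjusted p = 1.59e-06) and 1.55 (SE 0.27, adjusted p = 0.000143), or 49.2 scaled RPKM ± 11.8 (SD, n = 6) in thymus against 136 ± 40.0 (SD, n = 14) and 147 ± 47.6 (SD, n = 3). Aldoa, the aldolase of muscle and most other cells, was 5.92 to 6.48 in thymus and 6.51 to 8.65 in WT T-ALL, with 8.23, 6.52 and 7.57 in Notch3 KO T-ALL. Its lowest T-ALL libraries were barely above the highest thymus library, and it rose by 1.08 (SE 0.23, adjusted p = 0.000485) and 1.25 (SE 0.33, adjusted p = 0.00518). Aldoc, the brain aldolase, was untested at 0.15 to 1.28 over all libraries and made up at most 1.09% of the aldolase signal.

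Of the 6 tested enzymes from Gapdh to Pkm, 4 were called higher in each T-ALL group. Of all tested genes, 29.3% were called higher in WT T-ALL and 21.2% in Notch3 KO T-ALL. Pgam1, the mutase of lower glycolysis, was 4.82 to 6.14 in thymus and 6.28 to 7.71 in WT T-ALL, with 7.45, 6.54 and 7.09 in Notch3 KO T-ALL. Neither T-ALL group overlapped with thymus. It rose by 1.27 (SE 0.22, adjusted p = 4.96e-05) and 1.39 (SE 0.32, adjusted p = 0.00152). Pkm, which forms pyruvate, was 7.13 to 7.99 in thymus and 8.11 to 9.46 in WT T-ALL, with 8.66, 8.46 and 8.42 in Notch3 KO T-ALL, again without overlap. It rose by 1.04 (SE 0.19, adjusted p = 8.45e-05) and 0.86 (SE 0.27, adjusted p = 0.0149). Gene-level values cannot separate its M1 and M2 splice forms. Gapdh, the most abundant member, was 9.35 to 9.80, 9.77 to 11.70 and 10.04 to 10.90 in the 3 groups. It was higher by 1.13 (adjusted p = 3.09e-05) and 0.83 (adjusted p = 0.0189). Pgk1, the first ATP-forming kinase, was higher by 0.97 (adjusted p = 0.000137) and 0.96 (adjusted p = 0.00666), at 6.40 to 7.45, 7.17 to 8.67 and 7.66 to 8.23. Without Notch3 KO T-ALL 1 the calls of Aldoa, Gapdh, Pgk1 and Pkm in that group were lost, that of Gapdh also without Notch3 KO T-ALL 3. With quantile normalization the difference of Gapdh was 0.35 (adjusted p = 0.0673) in WT T-ALL and 0.05 (adjusted p = 0.884) in Notch3 KO T-ALL, and that of Pkm was 0.41 (adjusted p = 0.168) in the latter.

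Several of these genes share sequence with near copies, so that reads could have been split or exchanged. Of the stretches of 50 bases in the longest annotated transcript, 82.5% for Gapdh, 72.2% for Eno1, 68.0% for Pgk1, 41.5% for Pgam1 and 34.4% for Pkm also occurred in other genes. For Ldhb, Ldha, Aldoa and Tpi1 the shares were 27.0%, 16.6%, 13.5% and 7.51%. How the authors' counting treated such reads is not given in the sources used here.

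Eno1 and Eno3 were not called, unlike the enzymes before and after them. Eno1, the form of most cells, was 7.82, 7.92, 8.01, 7.54, 7.28 and 7.00 in thymus, 6.64 to 8.65 with a median of 8.21 in WT T-ALL, and 8.25, 8.20 and 7.06 in Notch3 KO T-ALL. The groups overlapped, and the difference was 0.40 (95% interval -0.14 to 0.94, adjusted p = 0.201) and 0.24 (-0.54 to 1.02, adjusted p = 0.633). With the library set as a term, added after the data had been seen, the second was 0.81 (adjusted p = 0.0462), and with quantile normalization the differences were 0.03 and -0.19. Its near copy Eno1b, which shares 70.5% of the Eno1 stretches, was 0.27 to 1.18 in thymus and 1.94 to 7.24 in WT T-ALL, with 3.61 to 5.93. in Notch3 KO T-ALL In the sum of both, an alternative added after the data had been seen, the difference was 0.50 (adjusted p = 0.110) and 0.46 (adjusted p = 0.349). Eno3, the muscle enolase, was 2.76 to 3.35 in thymus and differed by 0.32 and -0.26, with neither called. Eno2 was untested, at 0.49 to 0.92 in thymus and 0.00 to 1.11 in WT T-ALL, with 0.18 to 0.27. in Notch3 KO T-ALL

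**Figure D4:**
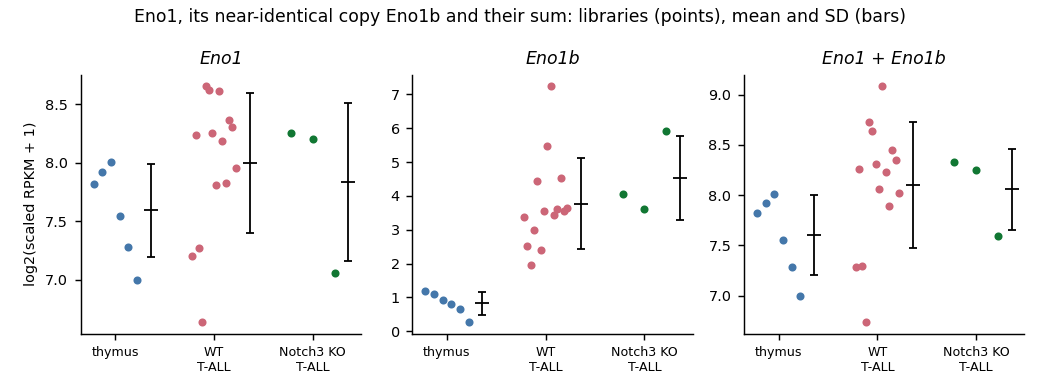
Levels of Eno1, its near copy Eno1b and their sum (added on the linear scale) in each library on the log2(scaled RPKM + 1) scale, with the mean and SD of each group. Eno1b lies above thymus in every T-ALL library, and Eno1 and the sum overlap between the groups.

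Bpgm diverts a glycolytic intermediate to 2,3-bisphosphoglycerate in red cells. It was 4.86, 4.41, 4.85, 4.35, 4.67 and 4.85 in thymus, 3.05 to 6.68 with a median of 5.26 in WT T-ALL, and 5.83, 7.20 and 7.31 in Notch3 KO T-ALL. WT T-ALL straddled thymus, with 8 libraries above all thymus libraries and 5 below, whereas the 3 Notch3 KO T-ALL libraries were above. The difference was 0.38 (SE 0.41, adjusted p = 0.447) in WT T-ALL and 2.12 (SE 0.59, adjusted p = 0.00743) in Notch3 KO T-ALL, and the latter call was lost without Notch3 KO T-ALL 3. With the erythroid score as a covariate it turned to -2.03 (adjusted p = 0.521). In set A, Bpgm was 3.05 to 4.31 in the 4 WT T-ALL libraries and -0.83 from thymus, and in set B it was 0.87 from thymus, so the WT T-ALL difference had opposite signs in the 2 sets, neither called.

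Whether Bpgm varied with the red-cell markers depended on how these were summed up. The erythroid score was 4.88, 7.03 and 6.34 in Notch3 KO T-ALL 1 to 3, and in thymus, where Bpgm was at 19.4 scaled RPKM or more, that score was near 0. Within WT T-ALL, Bpgm correlated with the score at r = 0.63 (permutation p = 0.0151, 0.528 adjusted over the 35 members) and rho = 0.51, and at r = 0.50 without WT T-ALL 7 and 108. With the log2 of the summed marker levels in place of their mean log2, r was 0.78 (adjusted p = 0.0318) and rho 0.79 (adjusted p = 0.0448), and r was 0.68 without WT T-ALL 5 and 7. In the 10 libraries of set B the r with the score was 0.31. No other member passed with either erythroid measure. Against Pgam1, the related mutase of the main route, Bpgm made up 33.9% ± 10.2 (SD, n = 6) of the summed signal in thymus, 23.5% ± 13.4 (SD, n = 14) in WT T-ALL and 46.5% ± 19.5 (SD, n = 3) in Notch3 KO T-ALL. None of the 3 differences in that ratio passed, the T-ALL groups differing by 1.62 (exact permutation p = 0.0265, adjusted p = 0.0744).

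The lactate dehydrogenases moved apart. Ldha encodes the subunit that predominates in tissues that make lactate, and Ldhb the heart subunit, found in tissues that consume it. Ldha was 8.37, 8.27, 8.35, 7.92, 7.76 and 7.40 in thymus, 8.58 to 9.76 with a median of 8.99 in WT T-ALL, and 9.06, 8.35 and 9.09 in Notch3 KO T-ALL. Only Notch3 KO T-ALL 2 lay within the thymus range. Ldha rose by 1.00 (SE 0.18, adjusted p = 6.41e-05) and 0.82 (SE 0.26, adjusted p = 0.0139), the second call being lost without Notch3 KO T-ALL 1 or 3 and with quantile normalization (0.31, adjusted p = 0.161).

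Ldhb was 7.72, 7.64, 7.80, 7.31, 7.74 and 7.98 in thymus, 4.61 to 7.21 with a median of 5.85 in WT T-ALL, and 4.12, 6.36 and 5.38 in Notch3 KO T-ALL. Every T-ALL library was below every thymus library. Ldhb fell by 1.82 (SE 0.35, adjusted p = 0.000183) and by 2.41 (SE 0.51, adjusted p = 0.000803), from 208 scaled RPKM ± 30.8 (SD, n = 6) to 67.2 ± 38.3 (SD, n = 14) and 46.0 ± 32.6 (SD, n = 3). It made up 44.6% ± 8.55 (SD, n = 6) of lactate dehydrogenase signal in thymus, a median of 10.97% (4.38% to 23.1%, n = 14) in WT T-ALL and 9.94% ± 8.85 (SD, n = 3) in Notch3 KO T-ALL. The summed signal of both genes was 473 ± 65.6, 596 ± 152 and 514 ± 94.2 scaled RPKM. The log2 ratio of Ldhb to Ldha differed from thymus by -2.83 (exact permutation adjusted p = 0.000387) and -3.24 (adjusted p = 0.0412), the largest shifts of the 15 ratios, and by -0.41 between the T-ALL groups (adjusted p = 0.557).

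**Figure D5:**
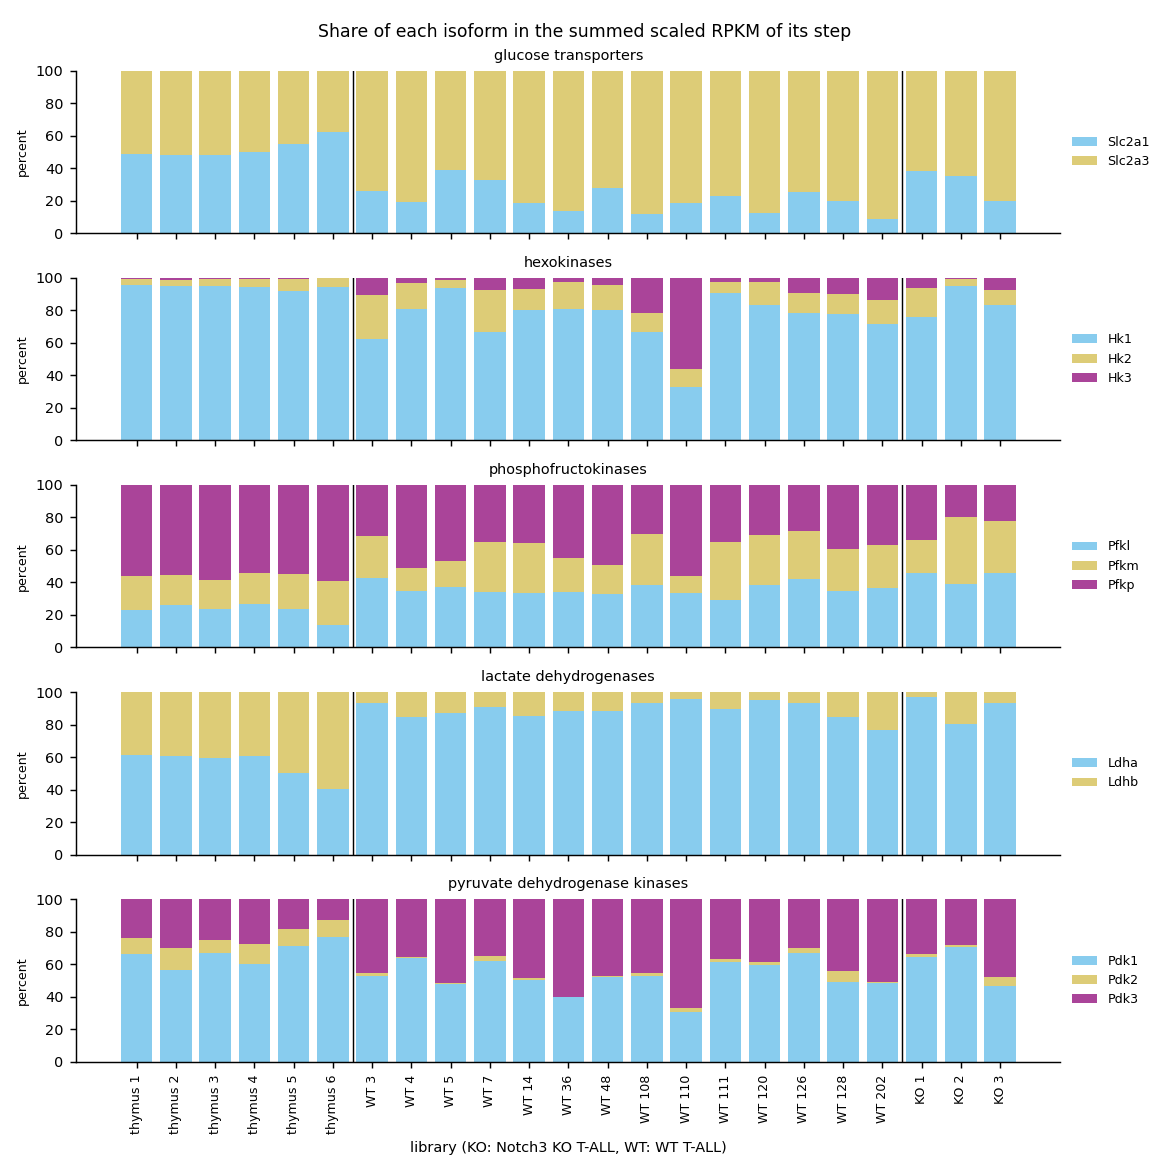
Share of each isoform in the summed linear scaled RPKM of its step, in percent, for each of the 23 libraries at 5 steps. Black lines part thymus, WT T-ALL and Notch3 KO T-ALL. Ldhb takes 38.9% to 59.9% in thymus and 2.98% to 23.1% in T-ALL, Pfkp narrows from thymus to Notch3 KO T-ALL, and Hk3 takes most of the hexokinase signal in WT T-ALL 110.

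The 250 bases upstream of the annotated start are printed for this pair, because its members moved in opposite directions, and for Pgk1, which rose. They come from RefSeq on GRCm38.p6. Capitals mark ACGTG, a form of the core of the hypoxia response element, or CACGTG, the canonical E-box, which contains that core, on either strand. Of the 2 annotated starts of Ldha the one with more matches is shown. The windows are at chr7:46845554-46845803 (plus strand), chr6:142507958-142508207 (minus strand) and chrX:106186850-106187099 (plus strand).
Ldha: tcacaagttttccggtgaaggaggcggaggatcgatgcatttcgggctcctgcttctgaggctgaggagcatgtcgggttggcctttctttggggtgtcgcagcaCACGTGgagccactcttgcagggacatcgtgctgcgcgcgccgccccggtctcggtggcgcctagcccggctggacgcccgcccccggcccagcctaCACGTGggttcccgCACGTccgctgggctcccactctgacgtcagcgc
Ldhb: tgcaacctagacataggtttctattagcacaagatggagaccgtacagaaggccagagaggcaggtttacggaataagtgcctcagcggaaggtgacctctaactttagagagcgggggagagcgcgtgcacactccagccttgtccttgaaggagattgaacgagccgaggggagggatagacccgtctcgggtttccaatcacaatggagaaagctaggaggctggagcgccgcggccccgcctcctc
Pgk1: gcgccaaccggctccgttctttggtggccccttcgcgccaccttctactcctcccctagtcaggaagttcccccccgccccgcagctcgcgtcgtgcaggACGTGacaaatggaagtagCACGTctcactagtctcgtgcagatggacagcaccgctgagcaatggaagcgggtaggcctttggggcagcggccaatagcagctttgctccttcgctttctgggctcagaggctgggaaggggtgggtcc
The Ldha window held 2 CACGTG and a further core on the reverse strand, that of Pgk1 held 2 cores and that of Ldhb none. Among the 34 members with a window, 15 (44.1%) held ACGTG and 5 (14.7%) held CACGTG, namely Ldha, Pdk2, Pfkfb3, Pfkm and Slc16a1. Over all 27025 genes with a window the shares were 18.5% and 6.86%. Members with CACGTG included 1 that rose and 2 that fell in WT T-ALL, and a match is a description of letters, not of a bound site.

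Lactate leaves through monocarboxylate transporters. Slc16a1 (MCT1), the general form, was 6.16 to 6.46 in thymus and 5.56 to 6.98 in WT T-ALL, with 6.24, 6.89 and 6.95 in Notch3 KO T-ALL, and its differences of 0.18 (95% interval -0.14 to 0.51) and 0.39 (-0.08 to 0.86) were not called. Slc16a3 was 0.38 to 0.98 in thymus, 0.46 to 4.77 with a median of 1.44 in WT T-ALL, and 1.76, 2.01 and 2.11 in Notch3 KO T-ALL. The 3 Notch3 KO T-ALL libraries were above all thymus libraries, yet the differences of 0.95 (SE 0.41, adjusted p = 0.0533) and 1.23 (SE 0.59, adjusted p = 0.103) missed the threshold. Both depended on the fit. With an offset of 0.1 they were 1.46 (adjusted p = 0.0298) and 2.01 (adjusted p = 0.0497), and with Notch3 KO T-ALL and thymus alone in the fit the second was called at an adjusted p of 0.000227. With a replicate block it was 1.17 (adjusted p = 0.0141). The first was also called without any 1 of WT T-ALL 4, 5, 36, 48, 110 or 120, and the second, like that of Hk3, without WT T-ALL 110. Its ratio to Slc16a1 was higher by 0.84 in Notch3 KO T-ALL (exact permutation adjusted p = 0.0412). Slc16a1 still made up 99.1%, 95.4% and 97.3% of their summed signal.

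On the route into the mitochondrion, 1 member (Dld) was called in WT T-ALL, where 29.3% of all tested genes were called higher. None was called in Notch3 KO T-ALL, against 21.2% of all genes. Mpc1 and Mpc2, the paired subunits of the pyruvate carrier, differed from thymus by 0.32 and 0.10 in WT T-ALL and by -0.15 and -0.04 in Notch3 KO T-ALL, with 95% intervals from -0.78 to 0.75 at the widest and no call. In the pyruvate dehydrogenase complex, Pdha1 and Pdhb of the first enzyme differed by 0.13 and 0.40 in WT T-ALL, and Dlat of the second by 0.23, with adjusted p from 0.0584 to 0.541, Pdhb being called without WT T-ALL 110, 120 or 202. Their differences in Notch3 KO T-ALL were -0.09, 0.29 and -0.02. Dld, the third enzyme, which also serves other complexes, was 5.29 to 5.95 in thymus and 5.68 to 6.95 in WT T-ALL, a rise of 0.64 (SE 0.16, adjusted p = 0.00238). Notch3 KO T-ALL, at 6.01 to 6.24, was above all thymus libraries with a difference of 0.51 (SE 0.24, adjusted p = 0.0968, or 0.0371 with those groups alone in the fit).

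The pyruvate dehydrogenase kinases, which shut the complex off, moved in different directions. Pdk2, a widely expressed form, was 2.85, 2.89, 2.60, 2.88, 3.06 and 3.19 in thymus, 0.17 to 1.95 with a median of 0.74 in WT T-ALL, and 0.75, 0.81 and 1.59 in Notch3 KO T-ALL. All T-ALL libraries were below thymus, and the fall was -2.13 (SE 0.21, adjusted p = 4.42e-08) and -1.86 (SE 0.31, adjusted p = 7.63e-05). Linear levels were 6.59 scaled RPKM ± 1.04 (SD, n = 6), 0.825 ± 0.741 (SD, n = 14) and 1.15 ± 0.752 (SD, n = 3). Pdk1, a hypoxia-inducible form, was 5.47, 4.73, 5.46, 4.98, 5.71 and 5.93 in thymus, 3.73 to 5.27 with a median of 4.48 in WT T-ALL, and 4.74, 5.48 and 4.27 in Notch3 KO T-ALL. It fell by 0.88 in WT T-ALL (SE 0.21, adjusted p = 0.00153), where 10 of 14 libraries were below thymus, and differed by -0.55 (SE 0.31, adjusted p = 0.166) in Notch3 KO T-ALL, which was called without Notch3 KO T-ALL 2.

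Pdk3 rose slightly in WT T-ALL. It was 3.47 to 4.09 in thymus and 3.72 to 4.86 in WT T-ALL, with 3.85, 4.18 and 4.31 in Notch3 KO T-ALL. The differences were 0.41 (SE 0.15, adjusted p = 0.0244) and 0.24 (SE 0.22, adjusted p = 0.402), the first lost without thymus 6. The kinase signal had median shares of 66.7% Pdk1, 10.3% Pdk2 and 24.5% Pdk3 in thymus, against 52.4%, 1.77% and 45.2% in WT T-ALL, while its sum was 62.8 ± 12.5 and 42.4 ± 8.36 scaled RPKM. The medians were 64.7%, 1.70% and 33.6% in Notch3 KO T-ALL. The Pdk3 to Pdk1 ratio differed from thymus by 1.29 in WT T-ALL (exact permutation adjusted p = 0.000871) and by 0.79 in Notch3 KO T-ALL (adjusted p = 0.210), and Pdk2 to Pdk1 by -1.25 (adjusted p = 0.00279) and -1.31 (adjusted p = 0.0893).

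Across the 15 isoform ratios, 8 differed between WT T-ALL and thymus, 4 between Notch3 KO T-ALL and thymus, and 1 between the T-ALL groups. With raw exact permutation p under 0.05 there were 10, 7 and 2. The called ratios not given above were both in WT T-ALL, namely Hk3 to Hk1 at 1.70 (adjusted p = 0.0362) and Aldoc to Aldoa at -0.90 (adjusted p = 0.00415). The latter goes with the rise of Aldoa, as Aldoc was near the floor of the scale and differed by 0.18 (SE 0.13, adjusted p = 0.291) in the fit without a filter. With 3 against 6 libraries the smallest p is 0.0119, so leaving out any of those libraries took all 4 Notch3 KO T-ALL calls away.

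Between Notch3 KO T-ALL and WT T-ALL, limma called 0 of 33 members higher and 0 lower, where 0.591% and 0.0257% of all 11677 tested genes were called. At an unadjusted p under 0.05 there were 3 members (9.09%), about the share of all genes (8.51%), namely Bpgm at 1.74 (SE 0.60, adjusted p = 0.257), Hk1 at 0.71 (SE 0.27, adjusted p = 0.347) and Pfkl at 0.50 (SE 0.20, adjusted p = 0.419). For each of these 3 genes the libraries of the T-ALL groups overlapped. With the library set as a term, added after the data had been seen, Bpgm differed by 2.85 (SE 0.55, adjusted p = 0.0207), and with the erythroid score as a covariate by 0.20 (SE 0.63). The 95% intervals of the other members reached as far as -2.04 for Hk3 and -1.67 for Ldhb, so differences of these sizes lie within the intervals.

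Neighboring pathways were read from 3 lists. Of 33 further genes of glycolysis and pyruvate use, 21 were tested, of which 12 were higher and 3 lower in WT T-ALL, and 8 and 2 in Notch3 KO T-ALL. These are 57.1% and 14.3%, and 38.1% and 9.52%, against 29.3% and 22.3%, and 21.2% and 16.3%, of all tested genes. Pklr, the pyruvate kinase of red cells and liver, was 0.00 to 0.04 in thymus and 1.07 to 4.46 in WT T-ALL, with 3.33 to 4.93 in Notch3 KO T-ALL, the largest rise of the list at 2.82 (SE 0.45, adjusted p = 2.56e-05) and 4.14 (SE 0.66, adjusted p = 5.3e-05). With thymus under 1 scaled RPKM throughout, Pklr entered the fits through the T-ALL libraries, where it was high. As with Bpgm, its median was highest in Notch3 KO T-ALL, the group with the highest median of the red-cell score. Neutrophil, macrophage, megakaryocyte, stromal and dividing-cell markers had their highest median in that group too. The part of each was not tested. Also among the largest in WT T-ALL were Fbp1, a gluconeogenic phosphatase, at 2.30, Txnip, a brake on glucose uptake, at -1.34 and Pgam2, the muscle mutase, at 1.23. Among those of Notch3 KO T-ALL were Pck2, a mitochondrial carboxykinase, at 2.69, Slc2a4, the insulin-responsive transporter, at 2.05 and Pcx, pyruvate carboxylase, at 1.49.

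All 8 genes of the pentose phosphate pathway, which draws on glucose phosphate for NADPH and ribose, were tested. In WT T-ALL 4 (50%) were higher and 1 (12.5%) lower, and in Notch3 KO T-ALL 2 (25%) and 1 (12.5%), beside the same shares of all genes. The largest in WT T-ALL were Tkt, a transketolase, at 1.65 (SE 0.21, adjusted p = 9.39e-07), G6pdx, its entry enzyme, at 0.98, Pgd at 0.96 and H6pd, the form of the endoplasmic reticulum, at -1.29. Tkt and Pgd were higher by 1.45 and 1.07 in Notch3 KO T-ALL, and H6pd lower at -1.03. Of 17 tested hypoxia regulators and targets, 3 (17.6%) were higher and 6 (35.3%) lower in WT T-ALL, where 29.3% and 22.3% of all genes were called. In Notch3 KO T-ALL 2 (11.8%) were higher and 3 (17.6%) lower, against 21.2% and 16.3%. Of the called genes the 4 with the largest change are named for each group. Epas1, an oxygen-regulated factor also found in endothelium and macrophages, rose by 2.56 (SE 0.33, adjusted p = 1.25e-06) and 2.11 (SE 0.47, adjusted p = 0.0013). Adm and Egln3 were higher in WT T-ALL by 1.87 and 1.15 and Bnip3 lower at -0.92, and in Notch3 KO T-ALL Egln3 was higher by 1.44 and Kdm3a and Vhl lower at -0.96 and -0.70. Hif1a differed by -0.31 (adjusted p = 0.160) and -0.42 (adjusted p = 0.218). Endothelial and stromal markers were also higher in T-ALL, at a mean log2 of 0.90 to 1.07, 1.17 to 1.91 and 1.86 to 2.50. Their median was highest in Notch3 KO T-ALL, whereas the Epas1 difference was larger in WT T-ALL. The part of these cells was not tested. In none of the 3 lists was a gene called between Notch3 KO T-ALL and WT T-ALL, and at an unadjusted p under 0.05 there were 4 of 21, 1 of 8 and 0 of 17, where all genes gave 8.51%.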

How the data were processed

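RNA was sequenced from 6 thymus, 14 WT T-ALL and 3 Notch3 KO T-ALL samples. Per the labels and the study's methods, the authors made stranded mRNA libraries with a KAPA kit, mapped paired reads with OSA, the aligner of ArrayStudio, to transcripts of mm10 and expressed genes as RPKM. The deposited values are log2: every column has a minimum of 0 and the same 75th percentile, which is that of log2(RPKM + 1) with RPKM scaled to a common value at this percentile. No read counts were analysed here, so the depth of each library is unknown and no interval or limit that needs it is given. The study's methods state only an approximate read number common to all samples. Replicates carry separate numbers in their labels, which name no mouse, so p-values measure the spread between these samples. The thymus libraries lay close in pairs and may be from fewer than 6 mice.

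The values were used as deposited. Genes that reached 1 scaled RPKM in 3 or more of the fitted libraries were kept and tested with limma 3.58.1 in R 4.3.3 (trend and robust), with all 3 groups in the fits against thymus and the T-ALL groups alone for their comparison. Adjusted p-values (Benjamini-Hochberg) cover all tested genes. Isoform ratios, as differences of log2 values, were compared by two-sided exact permutation tests, adjusted over 45 tests, and correlations by 100000 permutations. The limma fits and the exact permutation test were tried on simulated data. The members and gene lists were chosen with earlier results of these data known. Called members, all isoforms and up to 4 called genes of each neighboring list are named. Some genes that enter the marker scores are not reported here by name. Macrophage markers were read as well. In thymus, WT T-ALL and Notch3 KO T-ALL their mean log2 was 1.04 to 2.80, 1.76 to 5.32 and 4.60 to 5.25. Promoter windows and gene positions came from RefSeq on GRCm38.p6. Replicate numbers were not used to pair samples. Alternatives were another offset, other filters, quantile normalization, marker scores as covariates, library sets, thymus libraries averaged in pairs, a replicate block, other groups in the fit and each library left out.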

Additional observations from a re-analysis of the deposited data

Results flagged for a closer look

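In thymus, 50 sets of 6 values (the 35 members and 15 isoform ratios) were examined for a library far from the rest, which chance gives in about 1 in 20. There were 4 such sets, and all 4 involved thymus 6. Tpi1 was 4.76 there and 5.67 to 5.88 in the other 5 libraries, and Pfkfb4 was 1.81 against 1.58 to 1.66. The log2 ratio of Pfkp to Pfkl was 1.91 against 0.97 to 1.25, and that of Pfkm to Pfkl was 0.82 against -0.47 to -0.10. The values of thymus 6 stayed in all comparisons. Without that library Tpi1 and Pfkl kept their calls, and Pdk3 in WT T-ALL and Gpi1 and Slc2a3 in Notch3 KO T-ALL lost theirs.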

How the results depend on the processing

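With the erythroid score as a covariate, members higher and lower than thymus went from 14 and 5 to 1 and 1 (WT T-ALL) and from 13 and 3 to 0 and 0 (Notch3 KO T-ALL). In that fit the Notch3 KO T-ALL differences of Slc2a3, Pfkm, Pfkp and Bpgm were -0.22, -0.59, 0.00600 and -2.03, the opposite sign. None of them was called (adjusted p from 0.521 to 0.998). As the score did not overlap between thymus and T-ALL, these values extend the trend within groups across a gap, and their signs carry little information. The following alternatives were chosen after seeing the data. With the neutrophil score, which did not overlap between thymus and WT T-ALL, 6 members were higher in WT T-ALL and 3 in Notch3 KO T-ALL. Opposite signs were seen for Hk3 (-0.64) and Pfkfb4 (-1.06) in WT T-ALL and Pfkfb4 (-0.92) in Notch3 KO T-ALL, both values of Pfkfb4 being called. Within set A, with 9 libraries, 5 were higher and 3 lower in WT T-ALL (15.2% and 9.09%, against 8.84% and 6.37% of all genes). Isoform ratios called went from 8, 4 and 1 to 0, 0 and 0, where no call could be made, the smallest exact p being 0.0667, 0.1 and 0.0286 before adjustment over 45 tests. With thymus libraries averaged in pairs, 8 rose in Notch3 KO T-ALL (24.2%, against 14.0%) and ratios called were 5 and 0, the latter with a smallest p of 0.1. With the library set as a term, 1 member (Bpgm) was higher in Notch3 KO T-ALL than in WT T-ALL. Members correlated with a score (Pearson) went from 0 to 1 with the log2 sum of erythroid markers, and to 3 with the neutrophil score in all WT T-ALL libraries and 3 in set B. The cause was not tested, beyond fewer libraries in set A and in the averaged pairs.

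With a replicate block over the 3 shared numbers, 7 of 31 tested members were higher and 2 lower in WT T-ALL (22.6% and 6.45%, against 10.4% and 8.02% of all genes), and 10 and 2 of 32 in Notch3 KO T-ALL (31.2% and 6.25%, against 18.2% and 15.3%). Samples with a shared number did not deviate together (correlations of -0.24 to 0.13 and -0.03 to 0.15), so the numbers do not pair them. No paired analysis was possible for the T-ALL groups because they share only number 3.

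Leaving out each library gave 13 to 16 higher and 5 to 6 lower members in WT T-ALL, 6 to 15 and 2 to 3 in Notch3 KO T-ALL (6, or 18.2% against 15.4% of all genes, when its library 1 was absent and 7, or 21.2% against 13.4%, when its library 3 was) and 0 to 0 between the T-ALL groups. Ratios called were 7 to 9, 0 to 0 and 0 to 2 (2 without Notch3 KO T-ALL 1, 0 without 2 or 3). Offset, filters, quantile normalization and the groups in the fit left the member counts within 1.5 times, as did set B in WT T-ALL. Ratio counts were recomputed for the offset (8, 6 and 1) and, in WT T-ALL, set B (10). Quantile normalization moved the median of all genes from 0.08 to -0.01 (WT T-ALL) and -0.05 (Notch3 KO T-ALL). Of the single-gene values under all alternatives, 3730 kept their side of the threshold, 184 lost the call, 45 gained it and 7 turned with a call in either fit. Signs of values not called moved more freely, with 39 such gene differences of opposite sign under at least 1 alternative. Unknown depth and 3 Notch3 KO T-ALL libraries limit what can be said of low genes.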
